A study of Mus musculus with 33 samples.

Results

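The telocytes of the mouse colon described here are 134 of the 6793 cells that passed the depth limits in the whole mesenchyme library, or 1.97% of them (exact 95% binomial interval 1.66 to 2.33%). They were chosen by a gate on their own transcript counts, where each unique molecular identifier (UMI) stands for 1 captured transcript. A cell entered with at least 1000 UMIs, at least 500 genes, at most 20% mitochondrial UMIs and at least 3 UMIs summed over Sox6, Bmp3, Bmp7, Emid1, Ednrb and Tmem158. It also had Adamdec1 below 0.4% of its UMIs, fewer than 3 UMIs of 6 endothelial genes and fewer than 5 of 4 smooth muscle genes. Since the cells were selected on these genes, the levels of the gate genes are descriptions, and every difference below is a description with no p-value.

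Subepithelial telocytes are thin fibroblasts that lie beneath the gut epithelium and carry a high level of PDGF receptor alpha, the product of Pdgfra. They are known as a source of BMP ligands, which push epithelial cells toward differentiation, and of noncanonical Wnt ligands such as Wnt5a. Other fibroblasts of the mucosa include lamina propria cells rich in the metalloprotease gene Adamdec1 and deeper CD81-positive cells that secrete the BMP antagonist Grem1 and support stem cells.

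The series holds 33 samples, of which 3 single-cell libraries of adult mouse colon were used here, the other samples not being used. Whole mesenchyme (1 library, genotype given as control) was sorted as EpCAM-negative and CD45-negative, and the GFP-low group (2 replicates) as cells with a low signal of PdgfraH2BeGFP, a nuclear fluorescent reporter of the Pdgfra locus. The mice were perfused adults, male and female, the muscle was stripped from the colon before collagenase digestion, and 8000 cells were loaded per library. The labels do not say how many animals went into a library, or whether the GFP-low replicates came from separate animals. The whole mesenchyme matrix held 41863444 UMIs, and those of GFP-low replicates 1 and 2 held 39190629 and 52313765. The gated telocytes gave 551001 UMIs in all, with a median of 3416 per cell against 4448 in the other passing cells. Between 6 and 11 barcodes of passing cells were shared by each pair of libraries, and 0 of the gated telocytes' barcodes occurred in a GFP-low library. All intervals are 95% intervals, and they reflect counting error alone. In summed cells, fewer cells of a kind and less RNA per cell cannot be told apart.

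The Adamdec1 limit removed most cells that met the rest of the rule. With it lifted, 1385 cells passed (20.4%, 19.4 to 21.4%), so that 1251 cells missed the gate by Adamdec1 alone. The median Adamdec1 share of UMIs was 0.273% in the gated telocytes, against 1.10% in these 1251 cells. The distribution ran through the limit without a gap: 54 cells lay between 0.3 and 0.4% and 63 between 0.4 and 0.5%. Cells on the 2 sides of the limit had similar levels of Pdgfra, 1282 CPM (UMIs of the gene scaled to a total of 1e6 per set of cells) just inside it and 1327 CPM just outside. The 18 gated telocytes with an Adamdec1 share under 0.1% had Pdgfra at 253 CPM, the pericyte gene Rgs5 at 1824 CPM and Grem1 at 1659 CPM. At the other threshold, the 34 gated telocytes with exactly 3 gate UMIs had 632 CPM of Pdgfra, and the 53 cells with 2 gate UMIs that met every other limit had 507 CPM. The 25 gated telocytes with 10 or more gate UMIs had 1373 CPM. Levels are therefore given side by side for the gated telocytes, for the 1251 cells that missed only the Adamdec1 limit, and for other classes: 3237 other Adamdec1 fibroblasts, 601 Cd81 fibroblasts and 896 endothelial cells, classed by UMI limits on their own markers. Unless stated otherwise, all other passing cells are the 6659 cells outside the gate, the 1251 included.

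**Figure D1:**
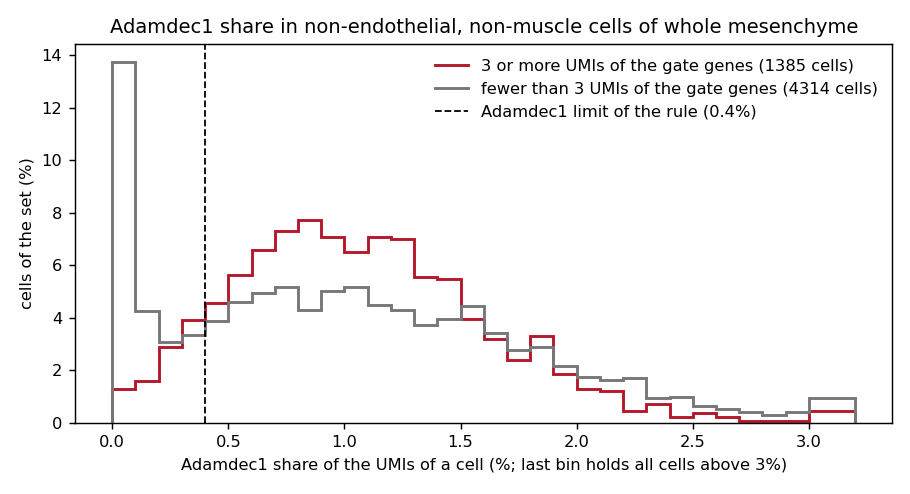
Adamdec1 share of each cell's UMIs (x axis, %) as a share of the cells of each set (y axis, %), for non-endothelial, non-muscle cells of whole mesenchyme with 3 or more and with fewer than 3 UMIs of the gate genes; the dashed line is the 0.4% limit. The 1385 cells with 3 or more gate UMIs form a single broad distribution with 134 cells below the limit, while the other cells have a separate peak below 0.1%.

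Of the genes known in telocytes but absent from the gate, Pdgfra, F3, Wnt5a and Bmp5 went with the label. Pdgfra itself stood at 1029 CPM (946 to 1117) in the gated telocytes and 1059 CPM in the cells past the Adamdec1 limit, against 310.5 CPM in other Adamdec1 fibroblasts, 342 CPM in Cd81 fibroblasts and 135 CPM in endothelium. It was 2.28-fold (2.09 to 2.48) above all other passing cells and was seen in 115 of the 134 cells, with a median of 3 UMIs per cell. F3, which encodes tissue factor, the starter of the clotting cascade and a surface marker of these cells, had 497 CPM (440 to 560) in gated telocytes and 596 CPM past the limit, against 55.4, 55.8 and 37.5 CPM in the other 3 classes in the same order. Wnt5a had 156 CPM (125 to 193) in gated telocytes and 190 CPM past the limit, against 26.9, 11.5 and 14.3 CPM. Bmp5, a BMP ligand gene, had 499 CPM (442 to 562) and 618 CPM, against 185, 28.9 and 63.2 CPM. These 4 genes thus shared an order, with both sets of gate-positive cells above every other class. Foxl1, a forkhead factor gene used to label telocytes, gave 6 UMIs in gated telocytes, or 10.9 CPM (4.00 to 23.7), against 6.82 CPM in all other passing cells, a ratio of 1.597 whose interval, 0.579 to 3.53, includes 1. In the cells past the limit Foxl1 had 114 UMIs, or 17.5 CPM, 4.41-fold (3.34 to 5.85) above the cells that belong to neither set.

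The remaining fixed genes did not follow that order. Bmp4 was at 503 CPM (445 to 566) in gated telocytes and 785 CPM past the limit, against 709 CPM in other Adamdec1 fibroblasts, so it did not set the gated cells above the fibroblasts around them. The tetraspanin gene Cd9 had 379 CPM (330 to 434) in gated telocytes, against 205.6 CPM past the limit, 119 CPM in other Adamdec1 fibroblasts, 401 CPM in Cd81 fibroblasts and 415 CPM in endothelium. The Notch ligand gene Dll1 had 41.7 CPM (26.5 to 62.6) on 23 UMIs in gated telocytes, against 69.9 CPM in other Adamdec1 fibroblasts and 14.3 CPM in Cd81 fibroblasts. Grem1 had 508 CPM (450 to 571) in gated telocytes, against 55.0 CPM past the limit and 2486 CPM in Cd81 fibroblasts. Its UMIs were held by few of the gated cells: 251 of 280 lay in the 8 cells with most of them, and 23 of 134 cells had any.

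When every cell was thinned to 1000 UMIs, which left out no passing cell, a Pdgfra UMI was found in 61.2% of gated telocytes, 66.3% of cells past the limit, 29.7% of other Adamdec1 fibroblasts and 6.92% of endothelium, the class taken as background. Unthinned shares were 85.8%, 95.8%, 68.7% and 17.5%, at median depths of 3416, 4893, 5114 and 3000.5 UMIs. For F3 the thinned shares were 34.3%, 41.2%, 7.29% and 2.12%, against unthinned 64.9%, 74.7%, 17.9% and 7.14%.

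**Figure D2:**
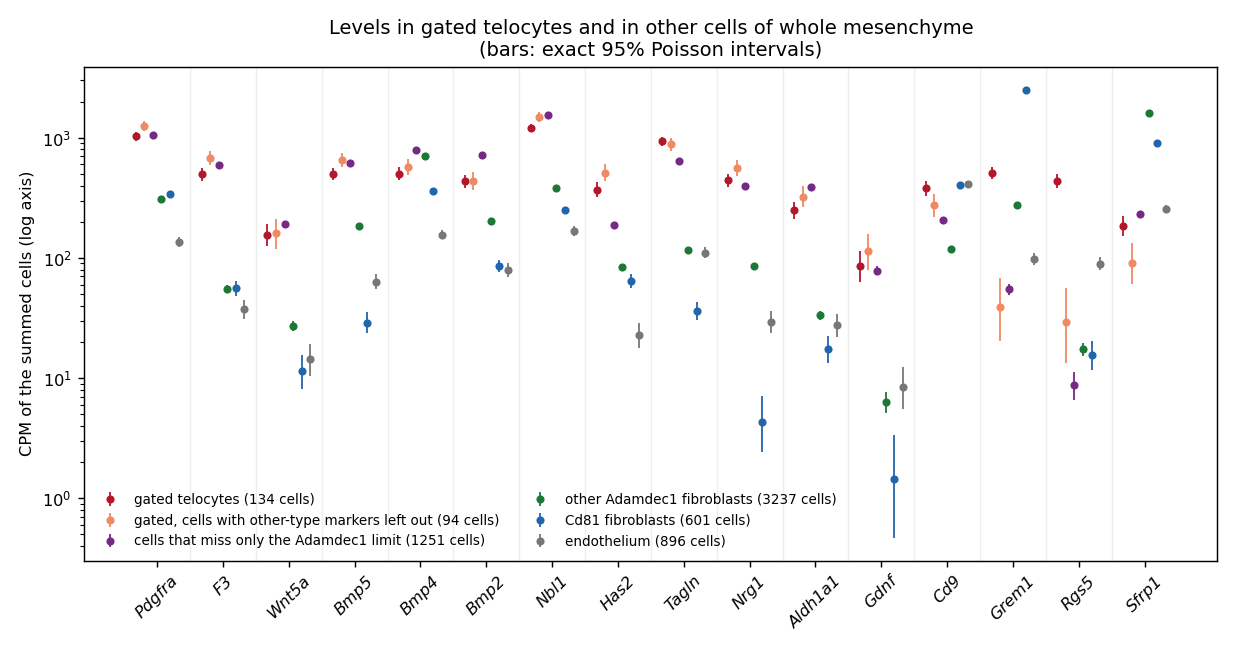
Levels of genes outside the gate (y axis, CPM of the summed cells, log scale) in gated telocytes, in gated telocytes without cells carrying markers of other types, in cells that miss only the Adamdec1 limit, and in 3 other classes; bars are exact 95% Poisson intervals. Pdgfra, F3, Wnt5a and Bmp5 are higher in the 3 gate-positive sets than in the other classes, while Grem1 and Rgs5 are high in the gated telocytes only before cells with other markers are left out. Rgs5 is itself one of the markers used to leave cells out.

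Some of the gated cells carried markers of other mural and nerve-associated types. Of the 134, 13 had at least 5 UMIs of 6 pericyte markers, 11 had at least 3 UMIs of 8 glial markers, 21 had at least 3 UMIs of the genes that class Cd81 fibroblasts, and 1 had at least 3 UMIs of 8 epithelial markers. The limits for pericyte, glial and Cd81-class genes were thus met by 9.70%, 8.21% and 15.7% of gated telocytes, and by 1.12%, 4.64% and 16.1% of the 1251 cells past the Adamdec1 limit. Summed pericyte markers stood at 668 CPM in gated telocytes, 111 CPM past the limit and 2734 CPM in the pericyte class, and all 6 pericyte markers were detected in gated telocytes. Of these markers, Abcc9 and Kcnj8 stood at 36.3 and 63.9 CPM past the limit, against 5.42 and 8.20 CPM in other Adamdec1 fibroblasts. These 2 markers were therefore not confined to the pericyte class, where they stood at 141 and 243 CPM. Summed glial markers stood at 354 CPM, 111 CPM and 4320 CPM in the glial class, and 6 of the 8 glial markers were detected in gated telocytes. At least 3 UMIs of leukocyte, lymphatic or mesothelial markers were found in 0 of 134 cells, which allows a share of up to 2.24%, and Ptprc, Cd3e and Tyrobp were at 0. Genes of interstitial cells of Cajal, the gut pacemaker cells, reached 3 UMIs in 7 gated telocytes (5.22%), against 13.6% of the cells past the limit, and Kit, their defining receptor gene, was at 0. Leaving out every gated cell with pericyte, glial, leukocyte, lymphatic, epithelial or Cd81-class markers left 94 cells. In these 94 cells Pdgfra was at 1251 CPM and F3 at 676 CPM, Grem1 was at 39.2 CPM, and the pericyte gene Rgs5 was at 29.4 CPM, against 437 CPM with all 134 cells. Rgs5 is itself one of the pericyte markers used to leave cells out, so its fall follows from that choice. The gate kept cells of lower RNA quality as well: 43.3% of gated telocytes had over 8% mitochondrial UMIs, against 27.9% of all other passing cells and 18.6% of the cells past the limit, and the share was 55.3% in the 94 cells without other markers, whose median depth was 2537.5 UMIs. The part of RNA quality in the differences below was not tested.

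Against all other passing cells, 688 of 12074 genes with at least 50 UMIs over both sums were at least 2-fold higher in gated telocytes (5.7%), and 891 were at least 2-fold lower (7.38%). The median log2 ratio over all these genes was 0.03. Many calls rested on few UMIs: among the 3568 genes with at least 50 CPM in either sum, 108 were higher (3.03%) and 131 lower (3.67%). Against the Adamdec1 fibroblast class, which includes 1234 of the 1251 cells, 687 of 11220 genes were higher (6.12%) and 726 lower (6.47%), and against Cd81 fibroblasts 502 of 7763 were higher (6.47%) and 641 lower (8.26%). When all 1385 cells that meet the rest of the rule were set against the remaining 5408, 450 genes were higher (3.73%) and 1097 lower (9.09%), at a median log2 ratio of -0.03.

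Among the 20 genes with the largest ratios, several had most of their UMIs in a few cells. Il1rl1, the interleukin-33 receptor gene, had 171 CPM (138 to 209) in gated telocytes, against 17.5 CPM in all other passing cells (9.76-fold, 7.76 to 12.2), and 86 of its 94 UMIs lay in 8 cells. Fst, whose product follistatin binds activins, had 209 CPM (172 to 251) against 31.4 CPM (6.65-fold), with 108 of 115 UMIs in 8 cells. Inhba, which encodes the activin A subunit, had 125 CPM against 18.7 CPM (6.71-fold) and was more evenly spread, over 27 cells. Dmp1, a matrix protein gene best known from bone, had the largest ratio, 27.2-fold (17.7 to 41.0), with all 36 UMIs in 7 cells. Tspan8, a tetraspanin gene, had its 36 UMIs in 7 cells too, the matrix protease gene Mmp10 its 30 UMIs in 7 cells, and Smox, a polyamine oxidase gene, 34 UMIs in 9 cells.

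Several other genes among the 20 were carried by more of the gated cells. Wisp1, a matricellular signalling gene, had 103 CPM (78.4 to 134) in gated telocytes, against 16.7 CPM in all other passing cells (6.20-fold), in 38 cells. Parm1, Fibin and Basp1 were each found in 46 to 49 cells, at 154, 191 and 160 CPM in gated telocytes against 32.8, 46.6 and 39.1 CPM in all other passing cells. Gdnf, a neurotrophic factor gene of the enteric nervous system, had 85.3 CPM against 22.4 CPM (3.81-fold, 2.77 to 5.12) in 26 cells. Ltbp2 and Fbn2, genes of matrix microfibrils, were 9.80-fold and 5.03-fold higher, at 54.4 and 52.6 CPM against 5.55 and 10.5 CPM. Samd5 was 5.88-fold, the adhesion gene Alcam 3.82-fold and the cytokine gene Il11 5.31-fold higher, Il11 in 15 cells. The pericyte genes Rgs5 (5.60-fold) and Abcc9 (5.82-fold) were also among the 20, Rgs5 with 215 of its 241 UMIs in 8 cells. So was the microtubule regulator gene Stmn1 (5.40-fold), with 25 of its 31 UMIs in a single cell. In the 94 cells without other-type markers Rgs5 was at 29.4 CPM, against 78.1 CPM in all other passing cells, and Abcc9 was at 101 CPM. Both are among the pericyte markers used to leave cells out, so the fall of Rgs5 follows from that choice. Stmn1 was there at 9.80 CPM (2.02 to 28.6) on 3 UMIs, against 10.4 CPM. Of the 20 genes, 16 were also at least 2-fold higher in the cells past the Adamdec1 limit than in the cells that belong to neither set, beside 3.74% of all genes, and 2 were below them, Rgs5 and Tspan8.

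**Figure D3:**
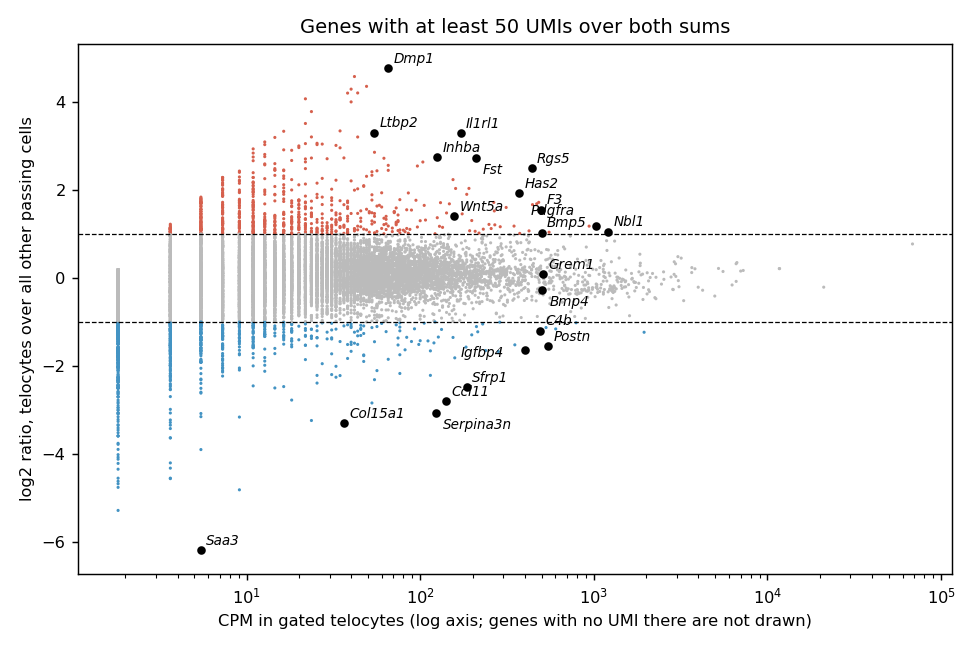
Log2 ratio of gated telocytes over all other passing cells (y axis) against the level in gated telocytes (x axis, CPM, log scale) for genes with at least 50 UMIs over both sums; dashed lines mark 2-fold, red genes are higher, blue genes lower. Genes named in the text are labelled, and most 2-fold calls lie at low levels, where 1 UMI in gated telocytes is worth about 1.81 CPM.

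The 10 genes with the smallest ratios of gated telocytes over both other fibroblast classes together were of several kinds. Saa3, an acute-phase gene, gave 3 UMIs in gated telocytes, or 5.44 CPM, against 456 CPM in these fibroblasts, a ratio of 0.0119 (0.00246 to 0.0349). Serpina3n, another acute-phase gene, had 123 CPM against 1157 CPM (0.107-fold), and the related Serpina3g 54.4 CPM against 302.6 CPM (0.180-fold). Ccl11, the eosinophil chemokine eotaxin, had 140 CPM against 1081 CPM (0.129-fold). Sfrp1, a secreted Wnt-binding inhibitor, had 185 CPM against 1159 CPM (0.160-fold, 0.130 to 0.194). Col15a1, a basement membrane zone collagen gene, had 36.3 CPM against 358 CPM (0.101-fold). The other 4 of the 10 were Ces1d, Tnfaip6, the kinase gene Dclk1 and the FGF receptor gene Fgfr2, at 0.0946-fold, 0.193-fold, 0.172-fold and 0.195-fold. All 10 were also lower in the cells past the Adamdec1 limit than in cells of neither set, 8 of them at least 2-fold, beside 9.47% of all genes. For Saa3 the gated cells were in turn far below the cells past the limit, which had 244 CPM.

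The gene lists that follow are described by how many of their tested members were at least 2-fold higher or lower in gated telocytes than in all other passing cells, beside 5.7% higher and 7.38% lower over all genes. After each median, "lifted" gives the numbers higher and lower, and their median log2 ratio, for all 1385 cells with the Adamdec1 limit lifted over the remaining cells, where 3.73% of all genes were higher and 9.09% lower. Of 10 BMP and GDF ligands tested outside the gate, 2 were higher and 0 lower (median log2 ratio 0.20). The higher ones, described above, were Bmp5 and Inhba, an activin subunit gene kept in this list. Bmp2, a ligand that acts on epithelial differentiation, had 434 CPM (380.5 to 492) in gated telocytes, against 282 CPM in all other passing cells, and 717 CPM in the cells past the limit. In gated telocytes 162 of its 239 UMIs lay in 8 cells. Bmp1, a gene of a procollagen protease despite its name, was at 98.0 against 95.8 CPM, and Bmp6 at 47.2 against 67.2 CPM. With the Adamdec1 limit lifted, 3 ligands were higher than in the remaining cells, Bmp2 with the other two, at a median of 0.63.

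BMP antagonists went both ways, with 4 of 13 higher and 2 lower (median -0.10). Besides Fst, Nbl1, which encodes a DAN-family antagonist, had 1205 CPM in gated telocytes and 1554 CPM past the limit, against 381 CPM in other Adamdec1 fibroblasts, and was found in 108 of the 134 cells. Chrd, the chordin gene, had 39.9 CPM against 14.5 CPM in all other passing cells. Sostdc1, an antagonist of BMP and Wnt ligands, owed its 22 UMIs to 3 cells and had 0.306 CPM past the limit. Fstl3 was among the lower ones, at 21.8 CPM against 45.01 CPM in all other passing cells. With the limit lifted, 5 antagonists were lower, among them Grem1, Chrdl1 and Nog, and 3 were higher, Fst, Nbl1 and Twsg1. Of 16 BMP receptors and Smads, 0 were higher and 1 lower (median -0.24, lifted 0 and 1 at -0.19). Bmpr1a, a type I receptor gene, had 87.1 CPM in gated telocytes against 99.2 CPM in all other passing cells. Of 9 BMP response genes 1 was higher and 1 lower (median 0.23, lifted 2 and 2 at -0.26). Id2, an inhibitor of DNA-binding factors induced by BMP signals, had 468 CPM in gated telocytes against 146 CPM (3.21-fold, 2.82 to 3.64), and Id1 had 479 CPM against 314 CPM. Of the 258 Id2 UMIs in gated telocytes, 141 lay in 8 cells.

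Wnt genes showed no common direction. Of 12 Wnt ligands and R-spondins, 2 were higher and 2 lower (median 0.00, lifted 2 and 4 at -0.06). Wnt5a was higher, as was Wnt6 on 6 UMIs in gated telocytes. Wnt4, another ligand gene, had 54.4 CPM in gated telocytes against 149 CPM in all other passing cells (0.366-fold), yet 257 CPM in the cells past the limit, so its direction turned when the limit was lifted (log2 ratio 1.01). Rspo3, the gene of an amplifier of Wnt signals, had 23.6 CPM against 42.6 CPM. Of 7 secreted Wnt inhibitors 2 were higher and 3 lower (median -0.01, lifted 2 and 3 at -0.52). Wif1 had 23.6 CPM in gated telocytes against 3.57 CPM in all other passing cells on 13 UMIs, while Frzb gave 1 UMI in gated telocytes and Igfbp4 had 403 CPM against 1245 CPM. Of 8 Wnt response genes 1 was higher and 2 lower (median 0.23, lifted 1 and 1 at -0.43), Axin2 being lower with 2 UMIs. Of 13 Hedgehog response genes 0 were higher and 2 lower (median 0.04, lifted 1 and 4 at -0.14). Gli1, a transcription factor of that pathway, had 36.3 CPM against 38.4 CPM, and Ptch1, its receptor, 167 CPM against 193 CPM.

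Of 12 EGF-family, FGF and HGF ligands, 5 were higher and 0 lower (median 0.21, lifted 4 and 1 at 0.18). Nrg1, an EGF-family ligand of the receptors ERBB3 and ERBB4, had 443 CPM (389 to 502) in gated telocytes and 396 CPM past the limit, against 85.8 CPM in other Adamdec1 fibroblasts and 4.30 CPM in Cd81 fibroblasts, with 183 of 244 UMIs in 8 cells. Fgf9 had 131 CPM against 40.0 CPM in all other passing cells (3.27-fold), in 35 cells. Fgf7, a ligand of an epithelial FGF receptor, had 174 CPM against 63.6 CPM, with 88 of 96 UMIs in 8 cells. Nrg2 and Btc were higher on 10 and 11 UMIs. Of 27 other growth factors 6 were higher and 5 lower (median 0.09, lifted 8 and 11 at -0.30). Bdnf and Il34 were higher with Gdnf and Il11, Bdnf at 21.8 CPM against 3.90 CPM and Il34, a ligand of the macrophage receptor CSF1R, at 69.0 CPM against 33.2 CPM. Pgf, a ligand of a VEGF receptor, gave 2 UMIs in gated telocytes and stood at 35.3 CPM in all other passing cells. Of 16 TGF-beta and activin genes 1 was higher, Ltbp2, and 2 lower, Ltbp1 and Tgfbr3 (median -0.15, lifted 2 and 5 at -0.07), at 65.3 CPM against 235 CPM and 122 CPM against 243 CPM.

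Of 30 basement membrane genes 7 were higher and 1 lower (median 0.15, lifted 7 and 8 at -0.24). Col4a5 and Col4a6, chains of a basement membrane collagen, had 269 CPM and 105 CPM in gated telocytes, against 117 CPM and 33.6 CPM in all other passing cells. The laminin chain gene Lama5 had 45.4 CPM against 18.6 CPM, Smoc1 30.9 CPM against 12.2 CPM and Egflam 32.7 CPM against 13.4 CPM. The more widely used chain gene Col4a1 was at 877 CPM against 981 CPM. Of 20 collagens 0 were higher and 2 lower (median -0.04, lifted 0 and 4 at -0.05), Col15a1 and Col13a1. Of 31 matricellular and matrix glycoproteins 4 were higher and 6 lower (median -0.01, lifted 5 and 11 at -0.57). Has2, a hyaluronan synthase gene, had 370 CPM (321 to 425) in gated telocytes against 97.7 CPM in all other passing cells and 187 CPM past the limit, in 59 cells. Postn, the periostin gene, had 543 CPM against 1597 CPM. Of 24 metalloproteases and inhibitors 2 were higher and 6 lower (median -0.18, lifted 2 and 6 at -0.36), among the lower ones Adamts2, which trims procollagen, at 32.7 CPM against 131 CPM, and Adamtsl2 on 4 UMIs.

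Contractile genes had the highest list median, 0.59, with 1 of 14 higher and 1 lower, and with the limit lifted 2 were higher and 2 lower at a median of 0.51. Tagln, an actin-binding protein gene of contractile cells, had 938 CPM (859 to 1023) in gated telocytes and 636 CPM past the limit, against 117 CPM in other Adamdec1 fibroblasts and 36.4 CPM in Cd81 fibroblasts. Acta2, smooth muscle actin, had 731 CPM and 462 CPM, against 111 CPM and 30.9 CPM. Tagln and Acta2 were at 6273 and 6575 CPM in the muscle class, and at 699 and 421 CPM in the pericyte class. In gated telocytes 243 of 517 Tagln UMIs and 200 of 403 Acta2 UMIs lay in the 8 cells with most of each. Lmod1, a gene of differentiated smooth muscle, gave 1 UMI in gated telocytes. The muscle genes of the gate were bounded by the rule in these cells and not in the compared cells.

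Of 23 chemokines and cytokines 2 were higher and 6 lower (median -0.28, lifted 4 and 5 at -0.46). Il1rl1, a receptor gene kept in this list, was higher. So was Cx3cl1, a chemokine that attracts macrophages, at 56.3 CPM in gated telocytes against 18.2 CPM in all other passing cells. Il6 had 32.7 CPM against 156 CPM and was lower with Ccl11. Of 13 complement genes 0 were higher and 2 lower (median -0.48), and with the Adamdec1 limit lifted 0 were higher and 9 lower (median -1.74). C4b had 486 CPM in gated telocytes against 1116 CPM (0.436-fold), C3, the central component, 775 CPM against 1423 CPM, and in the cells past the limit C3 was at 254.5 CPM. C3 varied among groups of the gated cells, between 21.2 and 1131 CPM at resolution 0.4 of the clustering. Clu was lower on 7 UMIs, at 12.7 CPM against 47.1 CPM in all other passing cells. It stood at 398 CPM in endothelium, but at 3.87 CPM in other Adamdec1 fibroblasts and 4.87 CPM in Cd81 fibroblasts, below the gated telocytes. Of 25 interferon-stimulated and MHC genes 2 were higher, Ifit2 and Ifit3, and 1 lower, Cd74 (median 0.14, lifted 1 and 4 at -0.12). Cd74 had 39.9 CPM in gated telocytes, on 22 UMIs in 7 cells. It had 1045 CPM in endothelium and 11.4 CPM in other Adamdec1 fibroblasts. Of 27 dissociation response genes 0 were higher and 1 lower, Dnajb1 (median -0.03, lifted 1 and 2 at 0.18), and Fos was at 7007 CPM against 6291 CPM.

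The remaining lists were mixed. Of 13 retinoid genes 1 was higher and 4 lower (median -0.32, lifted 3 and 5 at -0.27). Aldh1a1, an enzyme of retinoic acid synthesis, had 249 CPM in gated telocytes and 390.5 CPM past the limit, against 33.4 CPM in other Adamdec1 fibroblasts, while its relative Aldh1a3 had 27.2 CPM and 42.4 CPM, against 169 CPM. Adh1 gave 3 UMIs. Of 13 Notch genes 2 were higher and 2 lower (median -0.31, lifted 0 and 8 at -1.80). With the limit lifted the lower ones were Dll4, Jag2, Nrarp, Notch4, Heyl, Notch3, Notch1 and Dner. The rule bounds endothelial and muscle UMIs in the gate-positive cells, while the compared cells include the 896 endothelial cells. How much of the Notch values follows from that was not tested. Notch3, a receptor of pericytes, had 30.9 CPM in gated telocytes. It had 0 UMIs in the 94 cells without other-type markers, but it is one of the markers used to leave cells out. Of 30 axon guidance genes 6 were higher and 7 lower (median -0.02, lifted 4 and 13 at -0.21). Efnb2, an ephrin ligand, had 125 CPM against 48.6 CPM in all other passing cells, but 153 CPM in endothelium. Nrp1 and Plxna2, at 917 and 205 CPM in endothelium, were lower. Of 41 mesenchymal transcription factors 3 were higher and 5 lower (median 0.07, lifted 7 and 11 at 0.18). Tbx3, a T-box factor gene, had 69.0 CPM against 31.5 CPM, and the lower ones included Sox18, a factor of endothelium, Sox9 and Nr2f1. Of 29 surface receptors of the subepithelium 3 were higher, F3, Cdh2 and Lrig1, and 3 lower, Vcam1, Cd34 and Ncam1 (median 0.21, lifted 4 and 11 at -0.24). Cd34 had 99.8 CPM in gated telocytes against 268 CPM in all other passing cells and 607 CPM in Cd81 fibroblasts. Of 30 neuropeptide, prostaglandin and channel genes 5 were higher and 8 lower (median 0.06, lifted 8 and 7 at 0.07). Kcnj8, a potassium channel gene and one of the pericyte markers, had 76.2 CPM against 22.2 CPM, and 243 CPM in the pericyte class. Ace and Piezo1 were lower. Ace, on 2 UMIs in gated telocytes (3.63 CPM), stood at 344 CPM in endothelium and 4.39 CPM in other Adamdec1 fibroblasts.

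**Figure D4:**
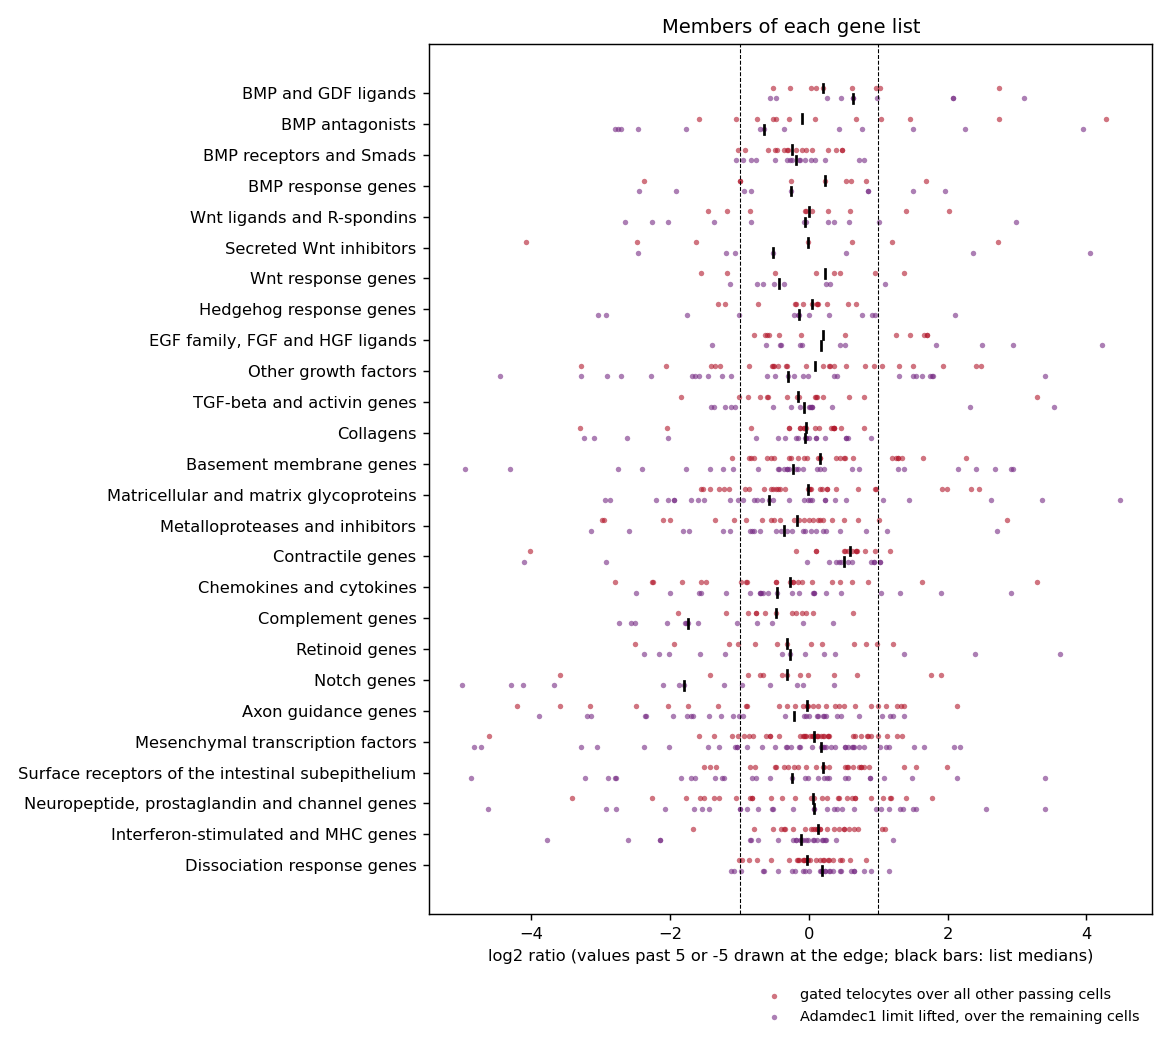
Log2 ratios of the members of the 26 gene lists (x axis; dashed lines mark 2-fold) for gated telocytes over all other passing cells and for all 1385 cells with the Adamdec1 limit lifted over the remaining cells; black bars are list medians. Contractile genes have the highest median for the gated telocytes, 0.59, and complement genes the lowest, -0.48.

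The gated telocytes were not uniform. A random part of the genes was used to cluster the cells and the other genes were held out, with all listed and marker genes among the held-out ones and gate, mitochondrial, ribosomal and sex-linked genes unused, and the groups are described by held-out genes and, for the gate genes, as chosen. Clustered in this way at resolution 0.4, the gated telocytes fell into 3 groups of 67, 60 and 7 cells. When every cell was thinned to 1000 UMIs they formed 1 group. The group of 67 was shallow, with a median of 1907 UMIs and 10.7% mitochondrial UMIs. Its leading held-out genes were Zfp57, Homer1, mt-Nd6, Mbd1, Smim13, Nckap5, Prickle2 and Brd9. The group of 60, at 5852.5 UMIs and 3.5% mitochondrial UMIs, was led by Col14a1, Cd81, Cd55, Chl1, Serpinf1, Grem1, Mmp10 and Abca8a. Of these, Cd81 is one of the genes that define the Cd81 fibroblast class, and Col14a1, Cd55, Serpinf1, Grem1 and Abca8a were higher in that class than in the gated telocytes as a whole. Few of the 60 cells carried them: Col14a1 and Grem1 were each seen in 15, Cd81 in 16, Cd55 in 17, Chl1 in 7 and Mmp10 in 6. The group was mixed, with Tagln at 1221 CPM and Rgs5 at 618 CPM. At resolution 0.8, described below, 30 of the 60 fell into a contractile group, 14 into a Grem1-rich and 8 into an Rgs5-rich group.

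The group of 7 cells had a median of 5526 UMIs. It was led by Tspan8, Car2, Smox, Dmp1, Fgf7, Agt, Cmc2 and Il1rl1. In these cells Bmp2 stood at 3046 CPM, against 322 and 133 CPM in the groups of 67 and 60. Nrg1 had 3003 CPM against 422 and 110 CPM, Fst 1692 CPM against 208 and 11.3 CPM, and Fgf7 1629 CPM against 107 and 8.46 CPM. By contrast Acta2 and Tagln gave 0 UMIs there, which allows up to 63.4 CPM, against 577 and 894 CPM of Acta2 in the other groups. Of the gate genes, Sox6 and Bmp3 were at 0 UMIs in the 7 cells, and Ednrb stood at 761 CPM.

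Resolution 0.8 gave 7 groups, among them small groups high in Grem1, in Rgs5 or in glial genes. How many of the cells past the limits for other-type markers lay in each group was not counted. A group of 14 cells had Grem1 at 2456 CPM, Col14a1 at 1637 CPM and C3 at 3468 CPM, with Pdgfra at 727 CPM. A group of 9 cells had Rgs5 at 8322 CPM, Pdgfra at 112 CPM and F3 at 0 UMIs, which allows up to 112 CPM. A group of 4 cells had Kcna1 among its leading genes, all 22 UMIs of Sostdc1 and 0 UMIs of Pdgfra, which allows up to 122 CPM. The group of 14 held 267 of the gated cells' 280 Grem1 UMIs, and the group of 9 held 223 of their 241 Rgs5 UMIs. A group of 30 cells carried contractile and BMP response genes, with Acta2 at 1566 CPM, Tagln at 2036 CPM and Id2 at 1080 CPM. A group of 24 cells had Acta2 at 1050 CPM and Rgs5 at 175 CPM. The shallow group held 45 cells, with a median of 1843 UMIs. The last group, 8 cells, had Bmp2 at 2689 CPM and Nrg1 at 3021 CPM.

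The same contrast between Bmp2 with Nrg1 and contractile genes was present among the 1385 cells with the Adamdec1 limit lifted, which share the 134 cells and cluster into 5 groups at resolution 0.4. A group of 31 cells, 6 of them gated, was led by Dmp1 and had Bmp2 at 3149 CPM, Nrg1 at 2954 CPM and Acta2 at 25.0 CPM. The largest group, 504 cells with 51 gated, had Acta2 at 895 CPM, Tagln at 1394 CPM, Bmp2 at 341 CPM and Nrg1 at 44.96 CPM. A group of 383 cells, only 4 of them gated, lay between, with Bmp2 at 1225 CPM, Nrg1 at 494 CPM, Acta2 at 341 CPM and Ednrb at 620 CPM. Of the gated telocytes, 56 fell into a shallow group of 265 cells with a median of 1860 UMIs and 11% mitochondrial UMIs. The last 17 were among 202 cells with Igfbp4 at 2021 CPM, Grem1 at 300 CPM and Pdgfra at 497 CPM.

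**Figure D5:**
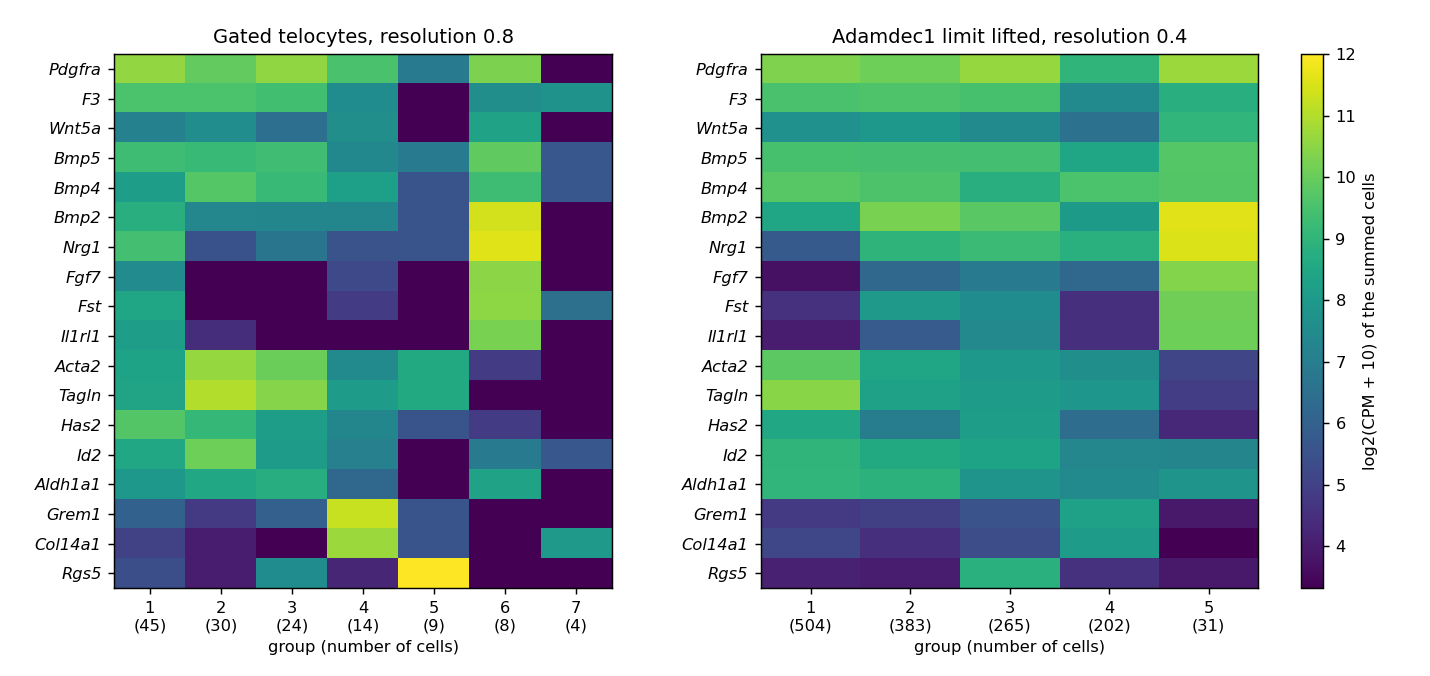
Levels of genes outside the gate (colour, log2(CPM + 10) of the summed cells) in the groups of the 134 gated telocytes at resolution 0.8 and of the 1385 cells with the Adamdec1 limit lifted at resolution 0.4; columns are groups with their number of cells. The groups of 8 and 31 cells, rich in Bmp2, Nrg1, Fgf7 and Fst, have little Acta2 and Tagln, and Grem1 and Rgs5 each mark a separate small group of gated cells.

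Directly against the 1251 cells past the limit, the gated telocytes were higher in the following genes. Rgs5 (50.1-fold), Ebf1, Igfbp6, Grem1 (9.24-fold), Prss23, Cilp, Col14a1, Cd55, Scn7a, Prnp and Fmo2 led the difference together with Il1rl1 (3.28-fold). In the 94 cells without markers of other types Il1rl1 was at 232 CPM, against 52.1 CPM past the limit, and Has2 at 513 CPM against 187 CPM, while Grem1, at 39.2 CPM, was no longer above the 55.0 CPM past the limit. Genes lower in gated telocytes than past the limit were Saa3, Ces1d, Cxcl13, Wnt4, Agt, Ch25h, Serpina3g, Col15a1, Scube1, Serpina3n, Lpl and Akap12. Cxcl13, the B-cell chemokine gene, had 63.5 CPM against 305 CPM. The Adamdec1 level itself split both sets, so these differences are descriptions of that split.

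Sex-linked transcripts showed that male and female cells were both among the gated telocytes. Xist without a Y-linked transcript was seen in 57 cells, a Y-linked transcript without Xist in 46, and both in 2. Pdgfra stood at 1084 CPM in the Xist cells and 1009 CPM in the Y cells, F3 at 461 and 529 CPM and Bmp5 at 489 and 484 CPM. Bmp2 was at 651 CPM in the Xist cells and 155 CPM in the Y cells, and Nrg1 at 607 and 175 CPM. Of the 7 Bmp2-rich cells 5 had Xist and 1 a Y-linked transcript. Among the cells past the limit the Bmp2 order was the other way, 601 CPM in Xist cells and 867 CPM in Y cells. Sex and animal cannot be told apart here.

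The GFP-low libraries, which the rule did not use, were sorted for low Pdgfra reporter signal, and few of their cells met the gate. The full gate passed 27 of 4834 cells of replicate 1 (0.559%, 0.368 to 0.812%) and 14 of 6025 cells of replicate 2 (0.232%, 0.127 to 0.390%). Nearly all cells there lacked Xist, which was found in 0.103% and 0.0332% of passing cells, against 37.2% in whole mesenchyme. Pdgfra was at 303 CPM in the gated cells of GFP-low replicate 1 against 163 CPM in its other cells, and at 151 CPM against 147 CPM in GFP-low replicate 2, on 65 and 18 UMIs. Wnt5a was at 313 CPM against 13.3 CPM and at 151 CPM against 22.6 CPM, and Bmp5 at 233 CPM against 50.2 CPM and at 193 CPM against 59.3 CPM. Tagln was at 411 CPM against 36.8 CPM and at 603 CPM against 29.0 CPM. Grem1, in contrast, stood at 1186 CPM against 1868 CPM and at 2018 CPM against 2256 CPM. Of the 20 genes with the largest ratios in whole mesenchyme, 12 had at least 50 UMIs in GFP-low replicate 1, of which 8 were at least 2-fold higher in its gated cells and 0 lower, beside 9.57% and 6.89% of all genes there. In GFP-low replicate 2, 12 had as many UMIs, of which 6 were higher and 0 lower, beside 11.9% and 6.05% of all genes. In the gated cells of these replicates 4 and 11 of the 20 were at 0 UMIs, which allows up to 14.002 and 25.12 CPM. Of the 10 lowest genes, 0 were at least 2-fold higher and 1 lower in replicate 1, and 1 was higher and 2 lower in replicate 2. The higher one was Saa3, at 100.5 CPM in the gated cells of replicate 2 against 34.5 CPM in its other cells (2.92-fold, 1.503 to 5.11), on 12 UMIs.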

How the data were processed

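The UMI counts of 3 droplet single-cell libraries were analysed, as deposited by the authors in unfiltered matrices of 31053 genes by 6794880 barcodes, made with Cell Ranger 3.0.2 on mm10, per the submitters' processing notes and the file headers. Cells passed at 1000 UMIs, 500 genes and 20% mitochondrial UMIs, which left 6793 cells of whole mesenchyme and 4834 and 6025 cells of the GFP-low replicates, and the gate of the opening paragraph was applied. No doublet caller was run, and an alternative left out cells above the 95th percentile of UMIs. The members and the 26 gene lists were chosen with earlier results of these data known.

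UMIs were summed over cells and scaled to a total of 1e6 per set of cells (CPM). With 1 library and cells chosen by their counts there is no test. Intervals are exact Poisson intervals for levels, exact conditional intervals for ratios and exact Clopper-Pearson binomial intervals for shares. Only the ratio intervals were tested on simulated data, which were Poisson counts without clumping of UMIs in single cells. Their coverage for genes with most UMIs in a few cells was therefore not tested. A gene was called at 2-fold with at least 50 UMIs over both sums, and 0 counts were taken as 3. Adamdec1 and the telocyte, endothelial and muscle genes of the gate were left out of the calls. The genes of the Cd81 class were left out only where Cd81 fibroblasts were compared. Genes that class pericytes and glia, such as Rgs5, Abcc9, Notch3 and Kcnj8, were kept. Remaining cells were classed in the order endothelium, muscle, glia, pericyte, Adamdec1 fibroblasts (0.4% or more of UMIs), Cd81 fibroblasts (3 UMIs of Cd81, Scara5, Clec3b and Pi16) and other.

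Genes named were 9 fixed ones (Pdgfra, Foxl1, F3, Wnt5a, Bmp5, Bmp4, Cd9, Dll1, Grem1), the 20 largest ratios with at least 50 CPM in gated telocytes, the 10 smallest ratios against both fibroblast classes with at least 100 CPM there, up to 3 per list among members called with at least 30 CPM on either side, and 8 leading held-out genes per group. Further genes were named after their values were seen: Bmp2, Acta2, Nbl1, the genes that separate gated telocytes from cells past the Adamdec1 limit, members given as counterparts in a list, and the leading genes at resolution 0.8. Groups used a random division of the genes (seed 1), 1500 variable genes, 20 principal components, 15 neighbours and Leiden (scanpy 1.11.5, leidenalg 0.10.2). TMM factors came from edgeR 4.0.16. Python 3.11.15 with numpy 2.4.6, scipy 1.17.1 and pandas 2.3.3 was used. Alternatives were a gate of 5 UMIs, 2000 UMIs per cell, gated cells with other-type markers left out, deep cells left out, thinning to 1000 UMIs, TMM factors, other count limits and 3-fold. Alternatives chosen after the data were seen were the Adamdec1 limit lifted, cells past it left out of the comparison, Cd81-class cells also left out, and a limit of 50 CPM. Some genes are not reported here.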

Additional observations from a re-analysis of the deposited data

How the results depend on the processing

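The share of telocytes was 1.10% with a gate of 5 UMIs, 1.605% without gated cells carrying markers of another type, 1.38% without those and cells with Cd81-class markers, and 20.4% with the Adamdec1 limit lifted.

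Counts of genes are given in the order higher and lower than all other passing cells (688 and 891 as reported), than Adamdec1 fibroblasts (687 and 726) and than Cd81 fibroblasts (502 and 641). At 3-fold they were 235 and 359, 223 and 262, and 204 and 321. With at least 50 CPM in either sum they were 108 and 131, 138 and 118, and 314 and 286. With 200 UMIs the counts that moved by over 1.5 times were 301, 281, 469, 141 and 271, and with no minimum of UMIs 1360, 1564, 1488 and 1059. Thinned cells gave 170 and 337 against Cd81 fibroblasts. Lifting the Adamdec1 limit gave 450 genes higher than all other passing cells and 895 higher than Cd81 fibroblasts. Leaving out gated cells with other-type and Cd81-class markers gave 1072 lower than Cd81 fibroblasts. The other counts stayed within 1.5 times.

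The number of groups among the gated telocytes was 3, and it was 7 at resolution 0.8, 5 with another division of the genes, 1 with thinned cells and 5 with the limit lifted.

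Of 121 named genes set against all other passing cells, the log2 ratio changed sign in 20 with the limit lifted, 12 without other-type and Cd81-class markers, 9 without other-type markers, 9 with a gate of 5 UMIs, 4 with thinned cells, 3 with the cells past the limit left out of the comparison, 2 with 2000 UMIs per cell, 2 without deep cells and 1, Grem1, with TMM factors. Those called at 2-fold in the comparison as reported are given with their ratios. Without other-type markers the ratios were -1.87 for Rgs5, -0.54 for Stmn1, -0.35 for Notch3, -0.72 for Chl1, -0.034 for Scn7a and -0.12 for Prnp. Rgs5 and Notch3 are among the markers used to leave those cells out. Leaving out Cd81-class cells too gave -1.41 for Rgs5, -0.089 for Stmn1, -0.26 for Chl1, -0.019 for Scn7a and -0.84 for Prnp. With the limit lifted the called genes that changed sign were at -1.20 for Rgs5, -1.87 for Notch3, -1.41 for Chl1, -0.61 for Scn7a, -0.55 for Prnp and 1.01 for Wnt4. With a gate of 5 UMIs they were -0.52 for Chl1 and -0.74 for Prnp. TMM factors shifted all ratios by the same factor, 1.07, and changed the sign of no called gene. The cause of each change was not tested, apart from the construction of the alternative. No paired analysis was possible because whole mesenchyme is 1 library and no test was run.

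Depth limits the genes below about 50 CPM, where the gated telocytes gave fewer than 28 UMIs.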
